A study of Mus musculus with 7 samples.

Results

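The calcium switch of the cardiac thin filament is built from troponin I, troponin T, troponin C and tropomyosin, and 10 mouse genes for these proteins were followed: *Tnni1*, *Tnni2*, *Tnni3*, *Tnnt1*, *Tnnt2*, *Tnnt3*, *Tnnc1*, *Tnnc2*, *Tpm1* and *Tpm2*. They were taken by gene symbol through their Ensembl identifiers, and all 10 were found among the 20927 entries of the count table. Calcium bound to troponin C releases the grip of troponin I on actin, troponin T ties the complex to tropomyosin, and tropomyosin then moves on the actin filament so that myosin can bind. Each troponin has versions that belong to heart, slow skeletal muscle or fast skeletal muscle, and the heart shares its troponin C with slow muscle. The slow troponin I gene is used by the fetal heart and gives way to the cardiac one around birth.

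RNA was measured in left ventricles from 3 WT mice, numbered 1, 3 and 4, and from 4 homozygous titin A178D mice, numbered 1 to 4, with 1 library per heart. All were of strain C57BL/6J according to the labels, no treatment is named, and the age and sex of the sequenced mice are not given in the sources used here. The A178D mice carried a single-base substitution in both copies of the titin gene *Ttn*, made with CRISPR-Cas9 in C57BL/6N embryonic stem cells together with silent base changes for genotyping. The line thus began in cells of one substrain and was crossed for several generations to the other, C57BL/6J, and the compared mice were littermates. The question asked of the data was whether ventricles with the titin variant differ from WT in the cardiac, slow skeletal and fast skeletal versions of these proteins. A change in the protein sequence of titin cannot be read from counts per gene, so the genotypes rest on the labels.

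Libraries of the WT hearts held 51797208, 54245530 and 41102868 counts (replicates 1, 3 and 4). Those of the A178D hearts held 40623300, 52345529, 42174448 and 33080675 counts (replicates 1 to 4), so that A178D replicate 4 was the shallowest. Levels are given as CPM, the usual counts scaled to a common library size, here with library sizes adjusted by TMM, and per-heart values are listed in the order WT 1, 3, 4 and A178D 1, 2, 3, 4. Among counts from 1 to 20, between 17.6 and 20.3% were odd numbers, depending on the library. The number of independent fragments behind a low count is therefore not known. Intervals on single counts take each count as independent and cover no more than counting error. They are too narrow where a fragment was counted more than once. The labels name no batch, and p-values weigh the difference between genotypes against the spread between hearts of a genotype.

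The labelled tissue was checked against 12 markers of ventricular cardiomyocytes, which were all expressed in every heart. Their summed level was 115432, 119208 and 119461 CPM in the WT and 119576, 117552, 115941 and 124181 CPM in the A178D hearts, and the most abundant of them was *Myh6*, the main myosin heavy chain of the adult mouse heart. Of 10 atrial markers, *Bmp10* had no count in any library, and *Myl7*, *Sln* and *Mybphl* stayed under 1 CPM in every heart. The atrial sum was 332, 267 and 185 CPM in WT and 603, 440.4, 394 and 668 CPM in A178D hearts. Most of it was *Nppa*, the precursor of atrial natriuretic peptide, which a stressed ventricle also makes.

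In both genotypes the abundant thin filament genes were those used by the heart. *Tnni3*, *Tnnt2*, *Tnnc1* and *Tpm1* together took 2.91, 3.11 and 3.14% of all counts in the WT libraries and 2.96, 2.91, 2.95 and 3.42% in the A178D libraries. The 6 other genes together took between 0.00551 and 0.00654%. None of the 9 genes that could be tested was called different between the genotypes by edgeR's quasi-likelihood test, where a gene is called at a Benjamini-Hochberg adjusted p under 0.05 over all 13894 tested genes. Limma-voom called 0 of the 9, and DESeq2 called 0 of the 8 to which it gave an adjusted p, which left out *Tnni1*. The background in edgeR was 327 called genes, or 2.35% of those tested, with 1.04% higher and 1.31% lower in A178D.

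At an unadjusted p under 0.05 there were 2 of the 9 genes, *Tnnc1* and *Tnnt1*, both with higher values in A178D, which is 22.2% against 16.7% of all tested genes. The hearts of the genotypes did not overlap in 1 of the 9, *Tnnc1*, or 11.1% against 16.1% of all tested genes. Log2 fold changes, given as A178D over WT, were above 0 in 5 and below 0 in 4 of the tested genes, with a median of 0.02 where all tested genes had 0.00. Hearts of 1 genotype varied with a biological coefficient of variation of 0.1107 over all genes. In pieces of whole ventricle, fewer cells of a type and less RNA per cell cannot be told apart.

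**Figure D1:**
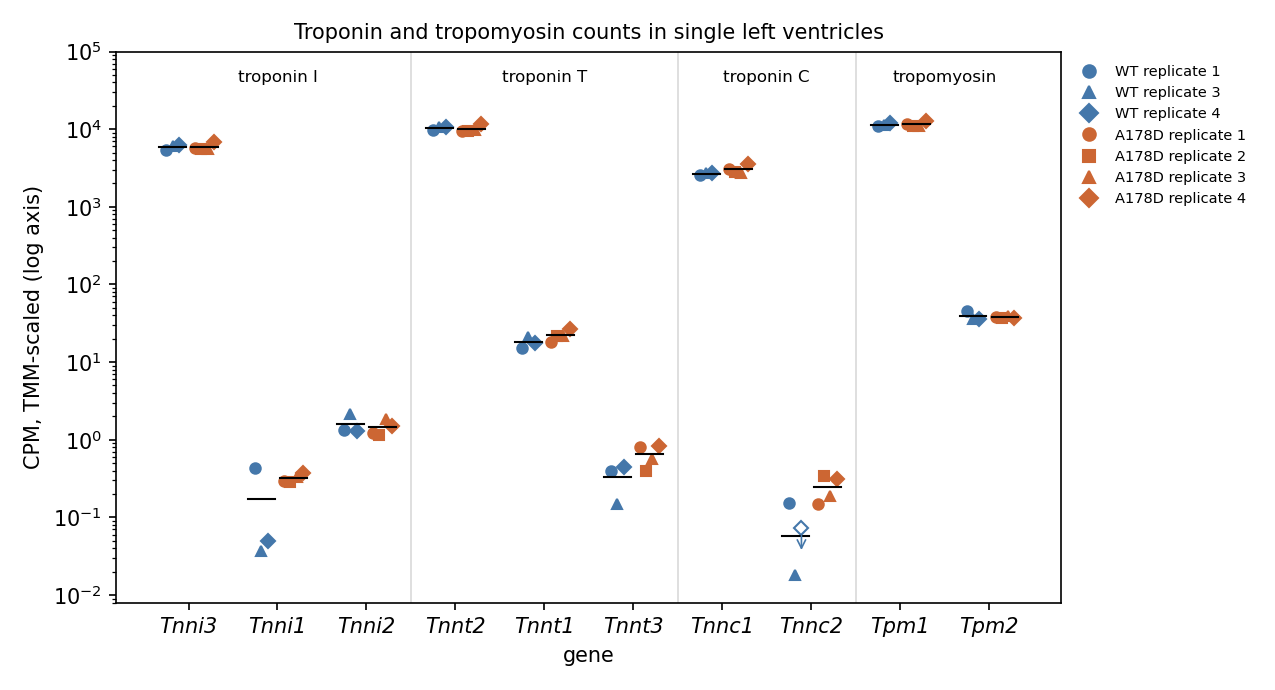
Level of each of the 10 genes in each heart, in TMM-scaled CPM on a log axis, grouped by protein, with WT hearts in blue, A178D hearts in orange and bars for group means. *Tnni3*, *Tnnt2*, *Tnnc1* and *Tpm1* lie at 2557 CPM or above in every heart, *Tpm2* and *Tnnt1* between 15.3 and 45.2, and the rest at or under 2.13. The open symbol with an arrow marks the count of 0 for *Tnnc2* in WT replicate 4, drawn at the 0.0738 CPM that 3 counts would give.

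Troponin I holds the filament in its resting state. *Tnni3* (ENSMUSG00000035458), the cardiac gene, lies on the minus strand of chromosome 7 from 4518305 to 4524229 (GRCm38, as for all positions here). Its level was 5319.7, 6153 and 6341 CPM in the WT hearts and 5709, 5546, 5481 and 6779 CPM in the A178D hearts. A178D replicate 4 was the highest and WT replicate 1 the lowest, and the genotypes overlapped. The means were 5938 ± 544 CPM (SD, n = 3) in WT and 5878 ± 608 CPM (SD, n = 4) in A178D. EdgeR gave a log2 fold change of -0.01 (adjusted p = 0.957, standard error 0.085) and a 95% confidence interval from -0.20 to 0.17. With offsets for transcript length and GC content the *Tnni3* log2 fold change was -0.14, with an edgeR adjusted p of 0.189, the lowest of a range up to 0.998 over the alternatives.

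*Tnni1* (ENSMUSG00000026418), the slow skeletal and fetal cardiac troponin I gene, lies on the plus strand of chromosome 1 from 135779434 to 135810989. It had 23, 2 and 2 counts in the WT libraries, or 0.438, 0.0367 and 0.0492 CPM. The A178D libraries held 12, 15, 14 and 12 counts, or 0.297, 0.285, 0.328 and 0.371 CPM. The highest value of all was that of WT replicate 1, while WT replicates 3 and 4 lay under every A178D heart. If each count is independent, a count of 2 has an exact Poisson 95% interval from 0.242 to 7.22 counts, and 12 counts have one from 6.20 to 20.96. *Tnni1* reached 10 counts in 5 of the 7 libraries, 4 of them A178D, so the A178D libraries alone carried it past the filter of at least 10 counts in at least 3 libraries.

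The edgeR log2 fold change of *Tnni1* was 0.82 (standard error 0.70, adjusted p = 0.593), with an interval from -0.68 to 2.31. Single hearts decided this value. Leaving out WT replicate 1 gave 2.84, whereas leaving out WT replicate 3 gave 0.31 and leaving out WT replicate 4 gave 0.43, and adjusted p-values from the alternatives lay between 0.0627 and 0.880. With limma-voom the log2 fold change was 1.57, with an adjusted p of 0.271.

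*Tnni2* (ENSMUSG00000031097) encodes fast skeletal troponin I, on the plus strand of chromosome 7 from 142441808 to 142444410. It was present at 1.33, 2.13 and 1.28 CPM in WT and at 1.24, 1.14, 1.87 and 1.51 CPM in A178D hearts, from 49 to 116 counts per library. WT replicate 3 and A178D replicate 3 were the highest of their groups, and the genotypes overlapped. The log2 fold change was -0.14, within an interval from -0.74 to 0.45 (edgeR adjusted p = 0.847). Without WT replicate 3 it was 0.14, so the direction rested on that heart.

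Troponin T anchors the troponin complex to tropomyosin. *Tnnt2* (ENSMUSG00000026414), the cardiac gene, is on the plus strand of chromosome 1 from 135836354 to 135852260. The WT hearts had 9762, 10775 and 10692 CPM and the A178D hearts 9456, 9443, 9774 and 11691 CPM. A178D replicate 4 stood above all the others, and the remaining A178D hearts lay near the lowest WT heart. Group means were 10409.7 ± 563 CPM (SD, n = 3) in WT and 10091 ± 1078 CPM (SD, n = 4) in A178D. The log2 fold change was -0.04 (standard error 0.079, edgeR adjusted p = 0.828), with an interval from -0.21 to 0.13, and it was -0.12 without A178D replicate 4.

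*Tnnt1* (ENSMUSG00000064179) is the slow skeletal troponin T gene, on the minus strand of chromosome 7 from 4504570 to 4516382, and by level per length the most abundant of the skeletal troponin genes in these ventricles. Its level was 15.3, 21.3 and 17.5 CPM in WT and 18.2, 21.5, 21.95 and 26.7 CPM in A178D hearts. WT replicate 3 exceeded A178D replicate 1 and came close to A178D replicates 2 and 3, so the genotypes overlapped, with A178D replicate 4 the highest. The means were 18.03 ± 3.07 CPM (SD, n = 3) and 22.1 ± 3.50 CPM (SD, n = 4). The log2 fold change of 0.29 (standard error 0.13) had an interval from 0.0024 to 0.58, and the edgeR adjusted p was 0.293. It was 0.19 without WT replicate 1 and 0.43 without WT replicate 3.

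*Tnnt3* (ENSMUSG00000061723), the fast skeletal troponin T gene, lies on the plus strand of chromosome 7 from 142498836 to 142516009. It had 0.400, 0.147 and 0.443 CPM in WT and 0.818, 0.398, 0.562 and 0.834 CPM in A178D hearts. These levels rest on 21, 8 and 18 counts in the WT and 33, 21, 24 and 27 counts in the A178D libraries. Only WT replicate 3 had under 10 counts, with an exact Poisson interval from 3.45 to 15.8, and A178D replicate 2 lay among the WT hearts. With 10 counts in 2 WT and 4 A178D libraries, *Tnnt3* met the filter of 3 libraries in A178D alone and not in WT alone. The log2 fold change was 0.98 with an interval from -0.04 to 2.00 (standard error 0.47, edgeR adjusted p = 0.319). Without WT replicate 3 it was 0.61, and adjusted p-values from the alternatives lay between 0.268 and 0.614.

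Troponin C is the subunit that binds calcium. *Tnnc1* (ENSMUSG00000091898), shared by cardiac and slow skeletal muscle, lies on the plus strand of chromosome 14 from 31208312 to 31211729. Its level was 2557, 2721 and 2707 CPM in the WT hearts and 3046, 2784, 2748 and 3567 CPM in the A178D hearts. All A178D hearts exceeded all WT hearts, but A178D replicates 2 and 3 were close to WT replicates 3 and 4, and A178D replicate 4 was far the highest. The means of 2662 ± 91.2 CPM (SD, n = 3) and 3036 ± 378 CPM (SD, n = 4) differ by a factor of 1.14. EdgeR put the log2 fold change at 0.19 (standard error 0.086) within an interval from 0.0058 to 0.37, and with an adjusted p of 0.282 it was not called.

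The *Tnnc1* difference moved with 1 library and with offsets for transcript length and GC content. Without A178D replicate 4 the log2 fold change was 0.10. Counts in WT replicate 1 and A178D replicate 4 followed opposite trends with transcript length and GC content, which for *Tnnc1* amounted to -0.17 and 0.20 on the log2 scale. With these trends removed by offsets the WT hearts stood at 2870 (replicate 1), 2761 and 2794 CPM, and the A178D hearts at 2948, 2762, 2794 and 3109.7 CPM. The genotypes then overlapped, and the log2 fold change was 0.05 (edgeR adjusted p = 0.689, between 0.238 and 0.689 in the alternatives). The trends were fitted to each library without regard to genotype, so the offsets can also take out a difference between genotypes. Whether the trends are technical or go with the genotype cannot be told apart here.

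*Tnnc2* (ENSMUSG00000017300), the fast skeletal troponin C gene on the minus strand of chromosome 2 from 164777161 to 164779967, was the only one of the 10 that did not pass the filter. The WT libraries held 8, 1 and 0 counts and the A178D libraries 6, 18, 8 and 10 counts. The corresponding levels were 0.152, 0.0183 and 0 CPM in WT and 0.149, 0.341, 0.187 and 0.309 CPM in A178D hearts. WT replicate 1 lay between A178D replicates 1 and 3, so the genotypes overlapped, and the count of 0 in WT replicate 4 allows up to 0.0738 CPM (3 counts). When genes with at least 1 count in any library were all fitted, the log2 fold change was 2.00 with an interval from 0.09 to 3.92 and an adjusted p of 0.308 over 16658 genes in edgeR.

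Tropomyosin is the cable along the actin filament that troponin moves. *Tpm1* (ENSMUSG00000032366), which gives the alpha-tropomyosin of the heart, is on the minus strand of chromosome 9 from 67022590 to 67049406. It was measured at 11053, 11308 and 12068 CPM in WT and at 11540.4, 11133, 11099 and 12863 CPM in A178D hearts. Again A178D replicate 4 was the highest, and the other A178D hearts lay within the WT range. The means were 11476 ± 528 CPM (SD, n = 3) and 11659 ± 827 CPM (SD, n = 4). The log2 fold change was 0.02 (standard error 0.067, edgeR adjusted p = 0.908), with an interval from -0.12 to 0.17.

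*Tpm2* (ENSMUSG00000028464) encodes beta-tropomyosin, on the minus strand of chromosome 4 from 43514711 to 43523765. Its level was 45.2, 36.4 and 36.4 CPM in WT and 37.99, 37.5, 39.7 and 37.0 CPM in A178D hearts. WT replicate 1 was the highest, and the other 6 hearts lay close together. The log2 fold change was -0.05 with an interval from -0.24 to 0.14 (edgeR adjusted p = 0.832), and it was 0.07 without WT replicate 1. The *Tpm1* gene can also be spliced into forms of other tissues, and counts per gene do not tell its forms, or those of *Tnnt2*, apart.

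**Figure D2:**
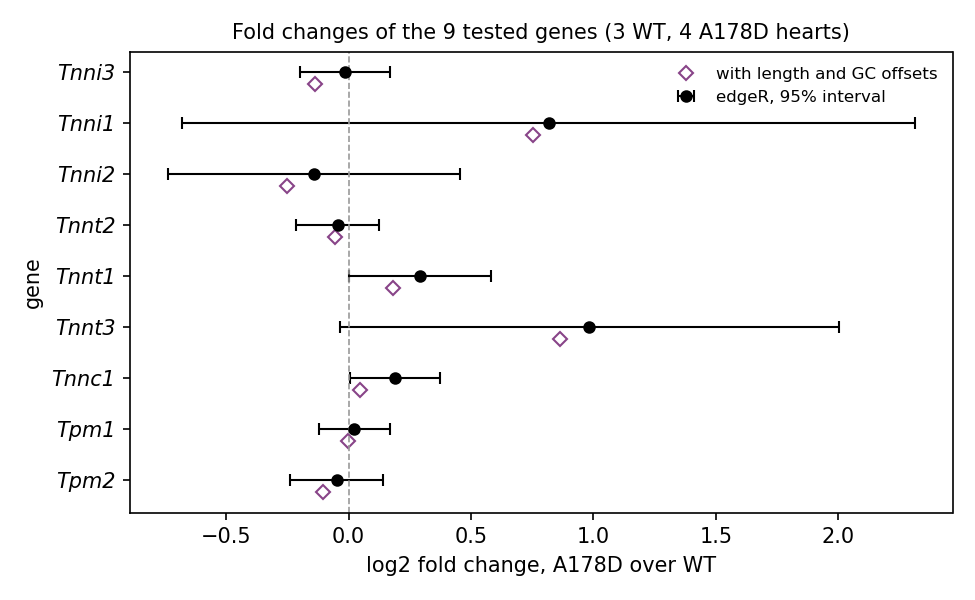
Log2 fold change (A178D over WT) of the 9 tested genes, with black points and bars for edgeR's estimate and its 95% confidence interval, and open diamonds for the estimate with length and GC offsets. The intervals of *Tnnt1* and *Tnnc1* begin just above 0, at 0.0024 and 0.0058, and their diamonds lie at 0.18 and 0.05.

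To compare genes with each other, counts were divided by the length of the union of a gene's exons and scaled so that all entries of a library have the same total as in CPM, which gives a level per length. In WT hearts this level was 9802 ± 644 for *Tnni3*, 8716 ± 132 for *Tnnc1*, 6032 ± 144 for *Tpm1* and 4576 ± 146 for *Tnnt2* (SD, n = 3). In A178D hearts *Tnnc1* came to 9534 ± 762 and *Tnni3* to 9321 ± 566, followed by *Tpm1* at 5886 ± 168 and *Tnnt2* at 4259 ± 297 (SD, n = 4). *Tnni3* and *Tnnc1* overlapped in A178D hearts and not in WT hearts, while *Tpm1* and *Tnnt2* were separated in both genotypes. Over all hearts these 4 genes ranked 11 (*Tnni3*), 12 (*Tnnc1*), 15 (*Tpm1*) and 23 (*Tnnt2*) of 20927 entries by level per length.

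The order of the abundant genes depended on the length used. *Tnnt2* has an exon union of 7752 bases against 1200 bases for its longest coding transcript, while *Tnnc1* has 1041 and 721 bases. Scaled by the longest coding transcript, an alternative chosen after seeing the data, the mean level over all hearts was 19021 for *Tnnt2*, 14437 for *Tnni3*, 8944 for *Tpm1* and 8884 for *Tnnc1*, with ranks 4, 6, 9 and 10. On that scale *Tnnt2* exceeded *Tnni3* in every heart, by a factor from 1.259 to 1.39. *Tnnc1* and *Tpm1* could not be ordered over all hearts, since their ratio ran from 0.899 to 1.11. *Tpm1* stood above *Tnnc1* in every WT heart, with ratios of 0.927, 0.965 and 0.899. In A178D hearts the ratios were 1.058, 1.002, 0.992 and 1.11.

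The minor genes fell far below on the exon-union scale. In WT hearts *Tpm2* had 46.3 ± 7.27, *Tnnt1* 27.9 ± 4.43 and *Tnni2* 3.60 ± 1.07 (level per length, SD, n = 3). The values in A178D hearts were 43.0 ± 2.86, 32.8 ± 4.36 and 3.16 ± 0.761 (SD, n = 4). On this scale these 3 genes did not overlap in either genotype. Scaled by the longest coding transcript, *Tnnt1* stood above *Tpm2* in A178D hearts, with means of 45.8 and 38.5, and below it in WT hearts, with 38.8 and 41.4. The lowest levels on the exon-union scale were those of *Tnnt3* at 0.711 ± 0.344 in WT and 1.34 ± 0.393 in A178D hearts, *Tnnc2* at 0.249 ± 0.366 and 1.01 ± 0.378, and *Tnni1* at 0.169 ± 0.224 and 0.291 ± 0.0265. *Tnnt3* and *Tnnc2* overlapped in both genotypes, and in WT *Tnni1* overlapped with *Tnnc2* and with *Tnnt3*.

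Within each protein family the cardiac gene held nearly the whole level per length. *Tnni3* made up 99.95 to 99.97% of troponin I and *Tnnc1* at least 99.98% of troponin C in every heart. *Tnni2* came to between 0.0278 and 0.0476% and *Tnni1* to between 0.00034 and 0.0047% of troponin I. For tropomyosin, *Tpm2* had 0.904, 0.713 and 0.668% of the summed level of *Tpm1* and *Tpm2* in WT and 0.729, 0.745, 0.792 and 0.637% in A178D hearts, and the genotypes overlapped.

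Of the troponins, troponin T had the largest skeletal share. *Tnnt1* made up 0.547, 0.691 and 0.572% of the troponin T level in WT and 0.673, 0.796, 0.783 and 0.797% in A178D hearts. A178D replicate 1 lay just under WT replicate 3, and the other A178D hearts lay above all WT hearts. The means were 0.603 ± 0.0772% (SD, n = 3) and 0.762 ± 0.060% (SD, n = 4), and no test was made. Scaled by the longest coding transcript the means were 0.195 and 0.247%. *Tnnt3* had 0.0199, 0.0066 and 0.0202% in WT and 0.0421, 0.0205, 0.0279 and 0.0346% in A178D hearts, where the values nearest each other, 0.0202 and 0.0205%, came from 18 and 21 counts and do not differ beyond counting error.

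Summed by type, the slow skeletal genes *Tnni1* and *Tnnt1* had a level per length of 24.8, 32.9 and 26.5 in WT and 27.2, 33.3, 34.1 and 37.8 in A178D hearts. The sum of the fast skeletal genes *Tnni2*, *Tnnt3* and *Tnnc2* was 4.68, 5.21 and 3.78 in WT and 4.99, 4.86, 6.24 and 5.95 in A178D hearts. The cardiac troponin genes *Tnni3*, *Tnnt2* and *Tnnc1* summed to 22114, 23699.8 and 23469 in WT and 22565, 22219, 22231 and 25440.4 in A178D hearts. The genotypes overlapped in each of the 3 sums. *Tnnt1* gave most of the slow sum and *Tnni2* most of the fast sum in every heart.

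Inside the cardiac set, *Tnnc1* stood higher relative to its partners in A178D hearts. The ratio of the *Tnnc1* to the *Tnni3* level per length was 0.952, 0.877 and 0.846 in WT and 1.06, 0.995, 0.994 and 1.04 in A178D hearts. To *Tnnt2* it was 1.95, 1.88 and 1.89 in WT and 2.40, 2.195, 2.09 and 2.27 in A178D hearts. To *Tpm1* it was 1.44, 1.499 and 1.40 in WT and 1.64, 1.56, 1.54 and 1.73 in A178D hearts. In each ratio all A178D hearts exceeded all WT hearts, and the group means differed by factors of 1.15, 1.18 and 1.12.

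Of the 6 pairs among *Tnni3*, *Tnnt2*, *Tnnc1* and *Tpm1*, the genotypes did not overlap in 3, the 3 that hold *Tnnc1*, and overlapped in the other 3. As background, 8.70% of the 13893 other tested genes did not overlap in their ratio to *Tnni3*, 11.4% in that to *Tnnt2* and 12.2% in that to *Tpm1*. The ratios share the *Tnnc1* counts and were looked at after the values were seen, so they are a description without a test. With the length and GC trends removed, the ratio to *Tnni3* was 0.971, 0.886 and 0.835 in WT and 1.04, 0.996, 0.991 and 1.04 in A178D hearts, still without overlap. With the same offsets the log2 fold change of *Tnnc1* was 0.05 and that of *Tnni3* was -0.14, so that this ratio rested more on *Tnni3*. The ratios to *Tnnt2* and *Tpm1* then overlapped, with group means that differed by factors of 1.08 and 1.04.

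**Figure D3:**
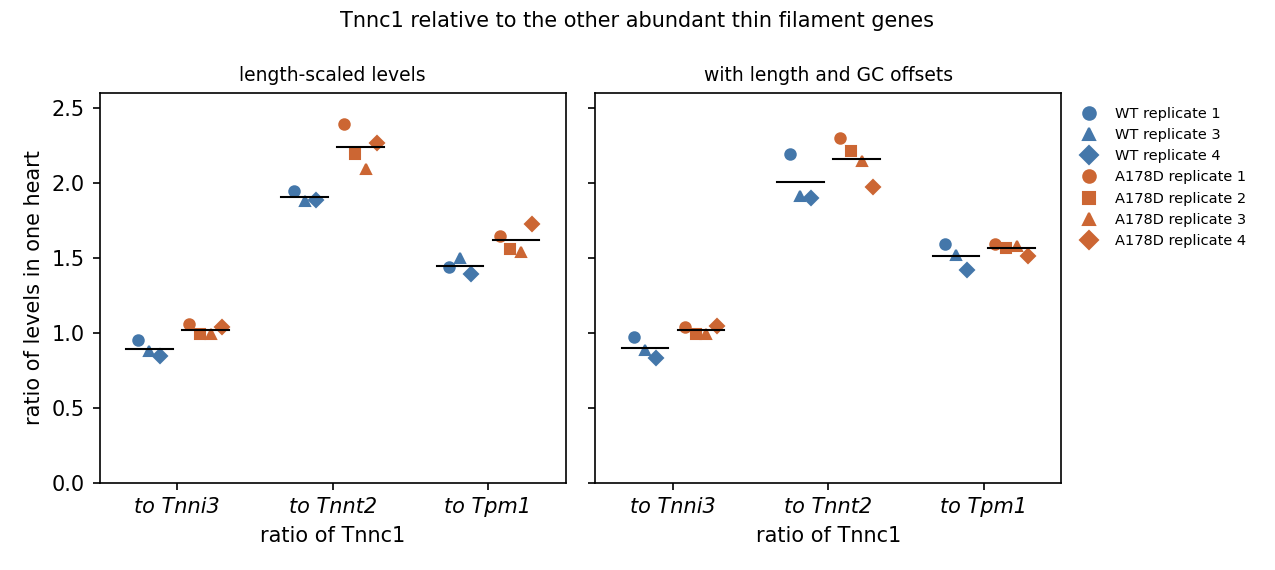
Ratio of the *Tnnc1* level per length to that of *Tnni3*, *Tnnt2* and *Tpm1* in each heart, from length-scaled counts (left) and with length and GC offsets (right), with bars for group means and both axes starting at 0. On the left all A178D hearts exceed all WT hearts in the 3 ratios, and on the right this holds for the ratio to *Tnni3* and not for the ratios to *Tnnt2* and *Tpm1*.

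In CPM without length and GC offsets, *Tnni3*, *Tnnt2* and *Tpm1* varied together over the 7 libraries. *Tnnc1* followed *Tpm1* about as closely as *Tnnt2* did, and had lower correlations with *Tnni3* and *Tnnt2*. Pearson's r of log2 CPM, as a description over 7 libraries that share their depth and composition, was 0.919 for *Tnni3* with *Tnnt2*, 0.907 for *Tnni3* with *Tpm1* and 0.814 for *Tnnt2* with *Tpm1*. With *Tnnc1* it was 0.805 for *Tpm1*, 0.659 for *Tnni3* and 0.536 for *Tnnt2*. Correlations with the offsets were not computed. A178D replicate 4, the shallowest library, had the highest level of *Tnni3*, *Tnnt2*, *Tnnc1*, *Tpm1* and *Tnnt1*. With the offsets, *Tnni3* in this library was at 5901 CPM, under WT replicates 3 and 4 at 6173 and 6626 CPM. The others were still highest in it. The same library had the lowest level of the very long *Ttn* transcript, which stood at 7245, 6247 and 6486 CPM in WT and at 5361, 6173, 6490 and 4087 CPM in A178D hearts. The part of library depth, transcript length and GC content in these values was not tested.

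Among the low genes, *Tnni1* and *Tnnc2* had an r of 0.904 over the 7 libraries, from counts between 0 and 23. Of the WT hearts, replicate 1 had the highest counts of both. It was also the highest WT heart for *Acta1*, the skeletal actin gene, with 183, 72.0 and 69.3 CPM in WT and 811, 495, 706 and 672 CPM in A178D hearts. For *Myh7*, the slow myosin heavy chain, the values were 783, 336 and 398 CPM in WT and 820.1, 1091, 779 and 939 CPM in A178D hearts. *Nppa* had 249, 188 and 109 CPM in WT and 529, 364, 322 and 588 CPM in A178D hearts. Whether WT replicate 1 differs from the other WT hearts for a reason shared by these genes was not tested.

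Genes with the most similar profile were ranked by Pearson's r over the 7 libraries, among 12211 genes and without length and GC offsets. The ranking describes libraries that share depth and composition. For *Tnni3* the closest were *Amdhd2* (0.990), *Pcna* (0.982) and *Ubl5* (0.978), and *Tnnt2* came at rank 81. For *Tnnt2* they were *Chchd7* (0.993) and *Cxxc1* (0.987), and *Tnni3* came at rank 70. For *Tnnc1* they were *Slc25a4* (0.992), *Ndufb7* (0.989) and *Mrpl14* (0.988), and for *Tpm1* *Aspscr1* (0.987), *Psmb2* (0.982) and *Pdcd5* (0.979). None of these 4 genes was among the closest 3 of another of the 4, and the other 6 genes were not ranked in this way.

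The troponin I and T genes lie in pairs on the mouse chromosomes, while *Tnnc1* and *Tnnc2* lie on chromosomes that hold none of the others. *Tnni1* and *Tnnt2*, a slow and a cardiac gene, are 25364 bases apart on chromosome 1, *Tnnt1* and *Tnni3* are 1922 bases apart on chromosome 7, and *Tnni2* and *Tnnt3* are 54425 bases apart on the same chromosome. In the pair of *Tnnt1* and *Tnni3* the levels per length were 32.8 and 9321 in A178D hearts. The exons of *Tnni3* share 86 bases with *Dnaaf3* on the same strand, a gene with 771 to 1341 counts per library against at least 219499 for *Tnni3*. The exons of *Tnnc2* share 592 bases with *Ube2c* on the opposite strand, which had 58, 86 and 30 counts in WT and 48, 114, 58 and 37 in A178D libraries. Whether reads were assigned by strand is not given in the sources used here, so the source of the few *Tnnc2* counts was not tested.

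Promoters are shown for the 4 abundant genes, which make up nearly the whole level of their families. RefSeq windows of 250 bases before the start (GRCm38.p6) were available for 8 of the 10 genes in 10 windows, with no entry for *Tnni2* and *Tnnt3*. RefSeq starts can differ from the gene positions given above. By those positions, of the windows shown, that of *Tnni3* lies inside the gene and that of *Tpm1* partly inside it. They were searched on both strands for the MCAT element CATTCC, for the GATA site as AGATAA, as TGATAA or as AGATAG, for the E-box CANNTG, and for the CArG box and MEF2 site by name. The windows shown are chr1:135836084-135836333 on the plus strand for *Tnnt2* (its first of 2), chr14:31208062-31208311 on the plus strand for *Tnnc1*, chr9:67049214-67049463 on the minus strand for *Tpm1* and chr7:4522529-4522778 on the minus strand for *Tnni3*. Capitals mark CATTCC or its reverse complement GGAATG, and AGATAA as its reverse complement TTATCT.
Tnnt2: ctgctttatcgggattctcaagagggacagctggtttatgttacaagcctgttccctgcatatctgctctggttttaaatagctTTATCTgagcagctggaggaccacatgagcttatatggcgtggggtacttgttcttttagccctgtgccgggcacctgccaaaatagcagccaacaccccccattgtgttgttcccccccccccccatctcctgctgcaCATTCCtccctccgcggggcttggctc
Tnnc1: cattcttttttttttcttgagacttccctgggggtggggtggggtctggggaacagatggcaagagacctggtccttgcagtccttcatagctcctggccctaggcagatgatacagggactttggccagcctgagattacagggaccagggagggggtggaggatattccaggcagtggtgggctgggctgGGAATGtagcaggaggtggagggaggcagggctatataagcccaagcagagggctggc
Tpm1: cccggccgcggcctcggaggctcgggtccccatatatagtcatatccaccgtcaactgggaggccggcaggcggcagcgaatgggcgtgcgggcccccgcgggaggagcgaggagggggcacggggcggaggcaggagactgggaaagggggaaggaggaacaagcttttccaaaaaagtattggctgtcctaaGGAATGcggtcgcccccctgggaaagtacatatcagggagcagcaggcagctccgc
Tnni3: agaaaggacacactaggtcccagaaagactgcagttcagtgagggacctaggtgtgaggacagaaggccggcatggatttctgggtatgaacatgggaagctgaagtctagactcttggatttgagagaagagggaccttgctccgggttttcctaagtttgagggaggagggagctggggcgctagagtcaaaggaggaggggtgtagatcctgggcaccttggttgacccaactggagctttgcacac

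A CATTCC match stood in the windows of *Tnnc1* and *Tpm1* and in the first window of *Tnnt2*, but not in the second window of *Tnnt2* nor in the windows of *Tnni3*, *Tnni1*, *Tnnt1*, *Tnnc2* and *Tpm2*. It is found in 12.6% of all 32851 windows of this length. The first *Tnnt2* window also held an AGATAA match, which 9.99% of all windows hold, TGATAA and AGATAG being in 7.94 and 7.71%. An E-box was found in every window printed, against 66.2% of all windows. CArG boxes (1.47% of all windows) and MEF2 sites (2.92%) were not found in any of the 10 windows. These matches are letters in a window and say nothing about binding.

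The other proteins of the thin filament were compared as a list of 20 further tropomyosin, actin, capping and nebulin genes, all tested. Of these 2 rose and 2 fell in A178D, 7 had an unadjusted p under 0.05, and the median log2 fold change was 0.02. For this list and those that follow, the background over all tested genes was 2.35% called and 16.7% with an unadjusted p under 0.05. *Acta1* rose by 2.64 on the log2 scale (edgeR adjusted p = 0.00065) and *Neb*, which encodes the giant thin filament protein nebulin, by 1.21 (0.0200). *Tmod3*, a capping protein of the pointed end, fell by 0.31 (0.0394), and *Lmod1*, a leiomodin of smooth muscle, fell by 0.70 (0.0427). The most abundant gene was *Actc1*, the cardiac actin on which troponin acts, with 13886, 13934 and 13700.1 CPM in WT and 14986, 14783, 14511 and 16216 CPM in A178D hearts. Its log2 fold change was 0.13 with an adjusted p of 0.293, and like *Tnnc1* it did not overlap between the genotypes. The remaining tropomyosin genes *Tpm3* and *Tpm4* had -0.02 and -0.09 and were not called.

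Among 17 thick filament genes, of which 13 were tested, 1 rose and 0 fell by edgeR, while 6 had an unadjusted p under 0.05 and the median was 0.11. The gene that rose was *Mybpc3*, the cardiac myosin binding protein C, at 5872, 5707 and 5239 CPM in WT and 6952, 6832, 6677 and 7209 CPM in A178D hearts. All A178D hearts lay above all WT hearts, with a log2 fold change of 0.30 (edgeR adjusted p = 0.0230). *Myh6*, the most abundant, had -0.11 (0.378) and *Myh7* 0.84 (0.0670), and neither was called by edgeR in its main form. The list held 2 called genes with limma-voom, without the filter on low counts, and with length and GC offsets. With the replicate block it held 1, which was not *Mybpc3*. *Myl7*, *Mybpc1*, *Mybph* and *Mybphl* stayed under 1 CPM in every heart.

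Of 24 kinase and phosphatase genes that act on troponin, tropomyosin or their regulators, 0 rose and 1 fell, 1 had an unadjusted p under 0.05, and the median was -0.04. *Prkaca*, the catalytic subunit of the kinase that phosphorylates cardiac troponin I, had a log2 fold change of -0.02 (edgeR adjusted p = 0.924). The most abundant gene of the list was *Prkar1a*, a regulatory subunit of the same kinase, with 0.10 (0.577).

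Splicing regulators that act on *Tnnt2* and *Tpm1* formed a list of 14 genes, of which 0 rose and 2 fell, 6 had an unadjusted p under 0.05, and the median was -0.10. *Rbfox1* fell by 0.49 (edgeR adjusted p = 0.0081) and *Rbm24*, a muscle splicing factor, by 0.28 (0.0406). *Rbm20*, which controls titin splicing, had -0.26 (0.0857) and was not called by edgeR in its main form, and *Qk* was the most abundant. The list held 3 called genes with DESeq2 and with length and GC offsets. Splice forms of the troponin and tropomyosin genes were not measured by these counts. Of 24 transcription factors known at their promoters, 0 rose and 1 fell, 8 had an unadjusted p under 0.05, and the median was -0.10. *Gata6* fell by 0.40 (0.0177), while *Gata4* had 0.16 (0.337) and *Tead1*, the most abundant and a factor of the MCAT element, had -0.01 (0.958).

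The skeletal muscle markers bear on the slow and fast troponin genes, and 15 of the 24 were tested. In A178D 4 of them rose and 0 fell, 6 had an unadjusted p under 0.05, and the median was 0.35. *Acta1* and *Neb* were named above. *Casq1*, the skeletal calsequestrin, rose by 1.14 (edgeR adjusted p = 0.0021) and *Ryr1*, the skeletal calcium release channel, by 1.257 (0.0328). The list summed to 3386, 3359.6 and 3360.2 CPM in WT and 4134, 3895, 4105 and 4351 CPM in A178D hearts, and its most abundant member by the mean over all hearts was the enolase gene *Eno3*, also a heart gene, with *Pygm* above it in some hearts. Most of the difference in this sum came from *Acta1*, without which it was 3203, 3288 and 3291 CPM in WT and 3323, 3399.5, 3399.5 and 3679 CPM in A178D hearts.

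Genes of the skeletal muscle list ranged from 0 to high levels. *Pax7* had no count in any library, *Myh4*, the fast myosin of skeletal muscle, had 0, 0.0367 and 0.0246 CPM in WT and 0 in all 4 A178D hearts, and *Myh1*, *Myh2*, *Myh3*, *Myh8*, *Mybpc1*, *Pvalb*, *Actn3*, *Myoz1*, *Myog*, *Myod1* and *Chrna1* were under 1 CPM in every heart. *Mylpf*, the fast regulatory light chain, had 0.780, 1.69 and 0.714 CPM in WT and 0.372, 0.759, 0.703 and 0.988 CPM in A178D hearts. WT replicate 3 had the most *Mylpf*, as it had the most *Tnni2*. Other fibre genes lay well above 0 and were not called, namely *Myl1* at 18.8 to 34.99 CPM over the hearts (log2 fold change 0.35, edgeR adjusted p = 0.215), *Mybpc2* at 28.6 to 34.7 CPM (0.12, 0.476) and *Cacna1s* at 29.5 to 46.6 CPM (-0.08, 0.824). *Atp2a1*, the calcium pump of fast fibres, had 0.856, 0.935 and 1.21 CPM in WT and 2.503, 1.78, 1.87 and 1.02 CPM in A178D hearts (0.86, 0.176), and the genotypes overlapped. The part of other muscle cells in the *Tnni2* counts was not tested.

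Among the 12 ventricular markers 1 rose, *Mybpc3*, and 0 fell, 5 had an unadjusted p under 0.05, and the median was 0.05. Of the 10 atrial markers 6 were tested, *Nppa* rose by 1.31 (edgeR adjusted p = 0.0146), 0 fell, 3 had an unadjusted p under 0.05, and the median was -0.02. In the list of 16 smooth muscle and pericyte markers 6 fell (*Acta2*, *Tagln*, *Myh11*, *Cnn1*, *Mylk* and *Lmod1*) and 0 rose, 12 had an unadjusted p under 0.05, and the median was -0.36. It summed to 1989.8, 1988 and 1917 CPM in WT and 1548, 1695, 1765 and 1491 CPM in A178D hearts, with *Abcc9* the most abundant. Over all tested genes 2.35% were called and 16.7% had an unadjusted p under 0.05. For *Tpm2*, which smooth muscle also expresses, the A178D hearts lay within the WT range.

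Of 12 fibroblast markers 1 rose, *Col3a1* with 0.62 (edgeR adjusted p = 0.0317), 0 fell, 4 had an unadjusted p under 0.05, and the median was 0.13. Their sum was 2624, 2937 and 2477 CPM in WT and 3054, 2951, 2849 and 3016 CPM in A178D hearts, with *Gsn* the most abundant. Of 12 endothelial markers 0 rose and 1 fell, *Flt1* by 0.35 (0.0200), 3 had an unadjusted p under 0.05, and the median was 0.06. They summed to 1989, 1988 and 1986 CPM in WT and 1947, 1910.5, 2024 and 2107 CPM in A178D hearts, with *Fabp4* the most abundant.

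Of 12 macrophage markers 2 rose, *Lyz2* with 0.40 (edgeR adjusted p = 0.0339) and *Cx3cr1* with 1.23 (0.0065), 0 fell, 6 had an unadjusted p under 0.05, and the median was 0.30. They summed to 338, 438 and 401 CPM in WT and 477, 483, 432 and 484 CPM in A178D hearts, with *Lyz2* the most abundant. The 5 erythrocyte markers in the table gave 0 calls by edgeR, 1 unadjusted p under 0.05 and a median of 0.13, with sums of 106, 115 and 106 CPM in WT and 129.8, 107, 94.2 and 154 CPM in A178D hearts and *Hbb-bs* the most abundant. Of the 21 called genes in all these lists, 4 (*Acta1*, *Casq1*, *Acta2* and *Tagln*) were called in each of the 7 fits that left out 1 heart. *Rbm24*, *Lmod1* and *Cnn1* were called in 1 of the 7, and the other called genes in 2 to 6. The part of other cell types in the troponin and tropomyosin values was not tested.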

How the data were processed

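RNA of 7 left ventricles was sequenced as stranded poly(A) libraries from both ends. The authors deposited raw counts per Ensembl entry, and their second deposited table, divided by size factors, was not used. The submitters' processing notes name bcl2fastq 2.18.0.12, HISAT2 2.1.0, SAMtools 1.6, DESeq2 1.26.0 and GRCm38, while the counting program and annotation release are not given in the sources used here. Names, positions and lengths came from GENCODE M21 and promoters from RefSeq. Of 21257 entries, 330 were removed because they repeated the counts of another entry, which left 20927.

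The comparison of A178D with WT used edgeR 4.0.16 in R 4.3.3 on genes that reached 10 counts in 3 or more libraries, with TMM, the quasi-likelihood test, no covariate and Benjamini-Hochberg adjustment over 13894 genes. The rule for named genes takes the 10 troponin and tropomyosin genes, called genes of the lists, the most abundant gene of each list and, for the most abundant member of each family, the 3 genes of highest Pearson correlation. Some genes that the rule takes are not described, and other genes were named after their values were seen. The lists were other thin filament genes, thick filament genes, kinases and phosphatases, splicing regulators, transcription factors, and markers of skeletal muscle, ventricular and atrial cardiomyocytes, smooth muscle and pericytes, fibroblasts, endothelium, macrophages and erythrocytes. The members and lists were chosen with earlier results of these data known.

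Alternatives were DESeq2 1.42.0, its size factors in edgeR, limma-voom (limma 3.58.1), other filters on low counts, the replicate number as a block, offsets for transcript length and GC content (mgcv 1.9.3, basis size 6), the table as deposited, the longest transcript as length, and each library left out. Halved counts, the longest coding transcript as length, and offsets and leave-one-out for the *Tnnc1* ratios were chosen after seeing the data. The fits were tested on simulated data.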

Additional observations from a re-analysis of the deposited data

Results flagged for a closer look

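The 4 A178D values of a gene were examined in 31 groups, and 2 of these had a sample far from the others, where chance gives about 1 in 20. *Tnnt2* reached 11691 CPM in A178D replicate 4, against 9443 to 9774 CPM in the other A178D hearts. *Col3a1*, a fibrillar collagen gene of the fibroblast list, stood at 323.8 CPM in A178D replicate 2, against 302.9 to 305.8 CPM in the other A178D hearts and 140.6 to 248.5 CPM in WT.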

How the results depend on the processing

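EdgeR called none of the tested troponin and tropomyosin genes in its main form or its alternatives, nor did DESeq2 and limma-voom, each run in 1 form. Over all genes, DESeq2, fitted to 16658 genes in place of 13894, called 290 genes higher and 375 lower, against 145 and 182, while edgeR without the filter on those genes called 190 and 246. What else made the difference was not tested. Leaving out single hearts, which leaves fewer samples, gave 22 (without WT replicate 3) to 215 (without WT replicate 1) genes higher and 31 to 238 lower, and for the lists 3 to 12 higher and 3 to 13 lower against 9 and 12. The direction of 4 uncalled genes turned. *Tnni3* (-0.01) ranged from -0.090 to 0.035, *Tpm1* (0.02) from -0.028 to 0.060, *Tpm2* (-0.05) from -0.10 to 0.066 and *Tnni2* (-0.14) from -0.30 to 0.14 without single hearts. With length and GC offsets *Tpm1* had -0.0030 and *Tnni3* -0.14. The cause was not tested. The labels do not say whether libraries of the same number are paired. Their deviations correlated at 0.0031, -0.0402 and -0.0424 over genes, which does not settle it. With the replicate block *Tnni3* had 0.010, *Tnnc1* 0.22, *Tnnt1* 0.30 and *Tnnt3* 1.24, none of them called. The replicate block ended the calls of *Mybpc3* (edgeR adjusted p = 0.0574), *Ryr1* (0.0585), *Cnn1* (0.0617), *Flt1* (0.0728), *Rbm24* (0.0804) and *Tmod3* (0.0987), in the same direction. It also added calls, with 9 list genes higher as in the main form and 8 lower. Of the macrophage markers 3 were called with the block, in place of 2. Without single hearts the *Tnnc1* ratios differed between genotypes by factors of 1.12 to 1.19 (*Tnni3*), 1.15 to 1.20 (*Tnnt2*) and 1.09 to 1.14 (*Tpm1*). *Tnni1* gave no value with halved counts or with at least 10 counts in every library, nor did *Tnnt3* with the latter, and DESeq2 gave *Tnni1* no adjusted p. Depth limits *Tnni1*, *Tnnt3* and *Tnnc2*, whose counts were between 0 and 33 per library.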
